A study of Mus musculus with 4 samples.

Results

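The Fc receptor genes Fcgr1, Fcgr2b, Fcgr3, Fcgr4, Fcer1g, Fcgrt, Fcer2a and Fcmr were followed across the leukocytes and wall cells of the C57BL/6 mouse aorta. They were taken by name, and all 8 were found by Ensembl ID among the 27998 genes of each of the 4 deposited files. Single cells of the young aortic arch intima were measured in 1 library pooled from 8 mice, and cells of the aged adventitia, the outer coat of the vessel, in 1 library whose number of mice is not stated. Cells of the aged descending intima, the inner lining, were measured in 2 libraries (a and b) of 6 mice each. Tissue was loosened with trypsin and scraped, actinomycin D was present to halt new transcription, and red cells were lysed. The mice carried no stated treatment or allele, and ages come from the sample titles. The young arch therefore differed from the aged descending aorta in region, age and library, which cannot be told apart. The labels repeat the protocol of the scraped intima for the adventitial library.

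Fc receptors bind the constant stem of antibodies. Fcgr1, Fcgr3 and Fcgr4 encode receptors for IgG that signal activation through the shared gamma chain, encoded by Fcer1g, whose cytoplasmic tail carries an activating tyrosine motif (ITAM). Fcgr2b encodes the inhibitory IgG receptor, which recruits phosphatases and restrains both B cells and myeloid cells. Fcgrt encodes the neonatal Fc receptor FcRn, which rescues IgG and albumin from breakdown inside endothelial cells and macrophages. Fcer2a encodes CD23, the low-affinity IgE receptor of B cells, and Fcmr the receptor for IgM.

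After filters and removal of called doublets 2122 cells remained in the arch library, 7850 in the adventitial library, and 1978 and 2095 in descending a and b. The median cell carried 6962.5, 2470.0, 5197 and 4886 UMIs in that order (unique molecular identifiers, tags that count each captured RNA once). Classes were named from marker RNA alone, so that macrophage stands for macrophage-like throughout, and the clustering left out the 8 receptor genes. Levels are UMIs of the gene per 1000000 UMIs (CPM), summed over the cells of a class in a library, with 95% exact Poisson intervals that cover counting error only. Red-cell-like barcodes, which should lack these receptors, served as a measure of free RNA. In the adventitia 735 red cells held Fcer1g at 165 CPM, Fcgr3 at 28.8 CPM and Fcgr2b at 12.5 CPM. In descending a Fcer1g stood at 50.3 CPM in 41 red cells, and Fcgr3 and Fcgr2b had 0 UMIs. Jchain, the joining chain made by plasma cells, stood at 465 CPM in adventitial red cells and had 0 UMIs in those of the arch. In these sums fewer expressing cells and less RNA per cell cannot be told apart.

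**Figure D1:**
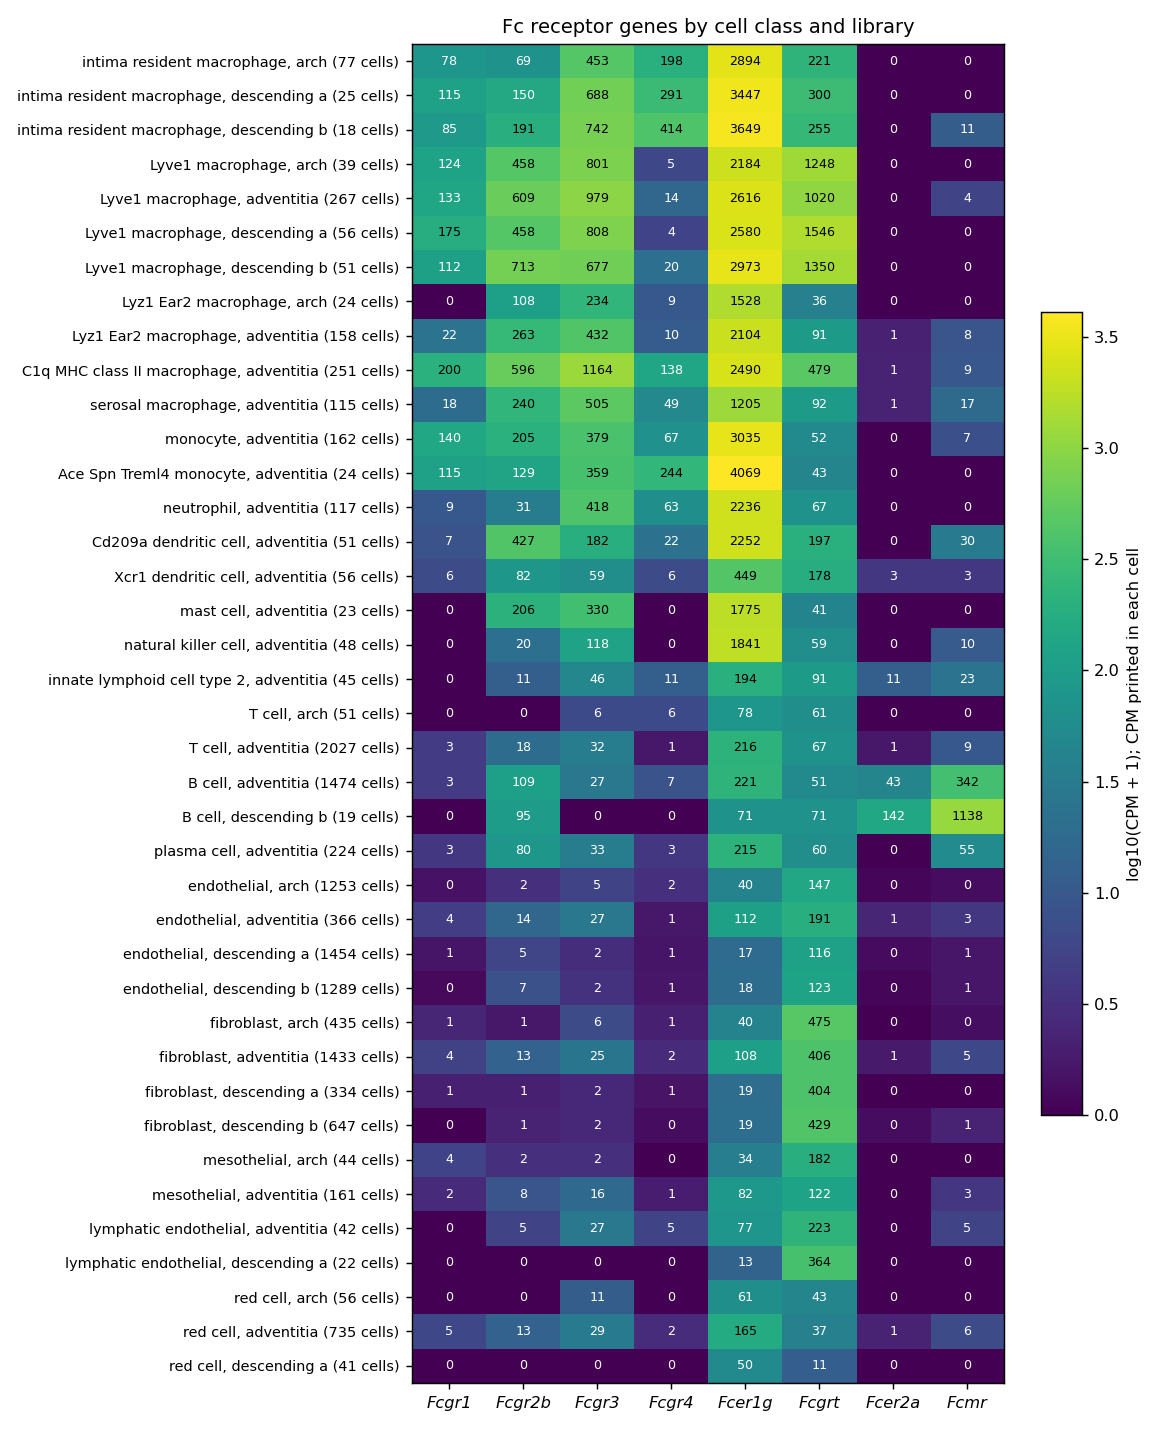
Each row is a cell class in a library (number of cells in brackets) and each column a gene; colour is log10(CPM + 1) and the printed number the CPM. Fcer1g is bright in every macrophage, monocyte, neutrophil, mast cell and natural killer row and in Cd209a dendritic cells. Fcgr4 is bright in the intima resident macrophages, the Ace Spn Treml4 monocytes and the C1q MHC class II macrophages. Fcgrt is bright in Lyve1 and C1q MHC class II macrophages and in fibroblasts, and Fcmr in B cells.

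The genes of the low-affinity IgG receptors lie close together on chromosome 1 of GRCm38 (GENCODE M21): Fcgr2b at 170958617 to 170976547 (minus strand), Fcgr4 at 171018920 to 171029761 (plus strand) and Fcgr3 at 171051174 to 171064935 (minus strand). Fcer1g follows at 171229572 to 171234365 on the minus strand. Fcmr lies elsewhere on chromosome 1, at 130865669 to 130880791 (plus strand). Fcgr1 is on chromosome 3 (96282909 to 96293969, minus strand), Fcgrt on chromosome 7 (45092990 to 45103851, minus strand) and Fcer2a on chromosome 8 (3681737 to 3694175, minus strand). Fcgr2b and Fcgr3 arose by duplication and still share sequence: 166 of the 5685 stretches of 50 bases in Fcgr2b transcripts also occur in Fcgr3 transcripts. In the last 600 bases of coding transcripts, where 3′ tags fall, 86 of 1687 such stretches of Fcgr2b did so and 0 of 1069 of Fcgr3. No other pair among the 8 genes shared a stretch. A small part of the Fcgr2b tags is therefore uncertain, while the ends of Fcgr3 transcripts held no shared stretch.

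The 250 bases before the RefSeq start sites (GRCm38.p6) of the IgG receptor genes are shown, 5′ to 3′ on the gene's strand. Capitals mark CTTCCTC, the reverse strand of GAGGAAG, a purine-rich core of the kind bound by the myeloid ETS factor PU.1. Both strands were searched. The Fcgr1 window is chr3:96293970-96294219 and the Fcgr4 window chr1:171018676-171018925. The Fcgr3 window shown is chr1:171059404-171059653 and the Fcgr2b window chr1:170976072-170976321. Both lie inside the GENCODE spans of their genes given above, which reach farther upstream than these RefSeq starts.
Fcgr1: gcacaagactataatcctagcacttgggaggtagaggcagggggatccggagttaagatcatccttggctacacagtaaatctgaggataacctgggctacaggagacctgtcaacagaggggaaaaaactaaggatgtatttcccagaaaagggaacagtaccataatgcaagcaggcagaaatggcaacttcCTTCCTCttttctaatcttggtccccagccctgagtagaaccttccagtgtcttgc
Fcgr4: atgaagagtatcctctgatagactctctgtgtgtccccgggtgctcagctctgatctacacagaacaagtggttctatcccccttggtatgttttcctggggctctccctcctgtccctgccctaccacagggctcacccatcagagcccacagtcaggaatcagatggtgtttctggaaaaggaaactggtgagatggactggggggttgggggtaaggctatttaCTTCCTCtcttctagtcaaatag
Fcgr3: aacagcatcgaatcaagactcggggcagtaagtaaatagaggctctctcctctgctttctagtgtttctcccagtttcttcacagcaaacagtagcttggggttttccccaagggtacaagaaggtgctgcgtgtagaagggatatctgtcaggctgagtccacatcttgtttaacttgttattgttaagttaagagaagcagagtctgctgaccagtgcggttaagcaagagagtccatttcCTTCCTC
Fcgr2b: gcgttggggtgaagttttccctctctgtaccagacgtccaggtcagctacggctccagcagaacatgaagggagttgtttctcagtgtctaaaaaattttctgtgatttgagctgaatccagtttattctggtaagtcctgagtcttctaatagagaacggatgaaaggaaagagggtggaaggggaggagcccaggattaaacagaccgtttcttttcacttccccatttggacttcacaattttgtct
The motif stood 56 bases before the start in Fcgr1, 23 bases before it in Fcgr4 and 7 bases before it in Fcgr3, each time on the same strand. Another Fcgr3 window, chr1:171059395-171059644, is not shown and held the motif 16 bases before its start. These letters were not in the windows of Fcgr2b, Fcer1g, Fcgrt, Fcer2a or Fcmr. Of 32851 such windows of the whole table, 10.6% held the motif on either strand. By gene, 12% held it in some window, beside 3 of the 8 receptor genes. A match therefore describes a window and is not a site shown to be bound.

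Macrophages of the intima carried far more of the IgG receptors and of their gamma chain than the endothelium of the same libraries. Fcgr3 stood at 472 CPM in the macrophages of the arch and at 741 and 581 CPM in those of descending a and b, against 4.52, 1.93 and 2.38 CPM in endothelial cells. Fcer1g stood at 2494, 2861 and 2770 CPM in macrophages, against 40.2, 17.1 and 18 CPM in endothelial cells of the same libraries. In every library the macrophages lay far above the endothelium. Of the 8 genes 6 passed the filter on low counts and all 6 were higher in macrophages, beside 18.7% of the 12121 genes tested called higher and 21.9% called lower (edgeR quasi-likelihood test with the library as a block, Benjamini-Hochberg adjusted p under 0.05). The log2 difference was 8.02 ± 0.32 (SE) for Fcgr1, 7.93 ± 0.29 for Fcgr3 and 7.16 ± 0.29 for Fcer1g. For Fcgr4 it was 6.76 ± 0.29 and for Fcgr2b 6.49 ± 0.21. Fcgrt differed least, by 2.73 ± 0.25, and stood at 116 to 147 CPM in the endothelium. Fcer2a and Fcmr fell below the filter. Fcgr1 and Fcgr4 averaged 0.43 and 1.16 CPM in the endothelium of the 3 libraries, so they passed it mainly through the macrophages. This limits what their calls as higher add. The classes were named from other genes of the same cells, so these differences describe the classes.

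Genes of the machinery behind the receptors were also mostly higher in macrophages, which again describes the classes. Over all genes of this comparison 18.7% were called higher and 21.9% lower. Among genes of activating signalling, 19 of 21 tested were higher in macrophages and 0 were lower, with a median log2 difference of 5.96 against -0.15 over all genes. Among those with the lowest adjusted p-values were Coro1a (an actin regulator), Lat2 (an adaptor) and Lyn (a kinase of the Src family), which were higher by 6.37, 6.48 and 5.32. Of the genes for inhibitory signalling 8 of 10 were higher, led by the phosphatase Ptpn6 with 6.46 and the adaptors Dok2 with 6.02 and Dok3 with 5.16, and with the kinase Csk at 1.76. Among signalling adaptors and partners of the gamma chain 6 of 7 were higher. They included the adaptors Tyrobp (DAP12) by 7.25 and Hcst (DAP10) by 5.73, the lectin Clec4n (Dectin-2) by 7.34 and Pira2 by 9.02. Below, gamma chain partners stands for this whole list, adaptors included. Of the other immunoglobulin receptors and partners 2 of 4 were higher: Fcrls, a secreted relative of the Fc receptors in mouse, by 7.69, and the B cell gene Fcrl1 by 5.80, on 3 to 5 UMIs in the macrophages of each library. B2m, the light chain that FcRn shares, and the cytosolic antibody receptor Trim21 were not called. The immunoglobulin chain genes of the list (12 of its 13 genes) had no matching row and were not analysed here.

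The macrophage types of the intima differed in which IgG receptor they carried. Intima resident macrophages are the type with Mmp12, Itgax and Cx3cr1 RNA, known from beneath the endothelium, and Lyve1 macrophages are the perivascular resident type. Intima resident cells numbered 77 in the arch, 25 in descending a and 18 in descending b, and Lyve1 cells 39, 56 and 51. Lyve1 itself was at 0 in the intima resident cells of both descending libraries, and Itgax and Cx3cr1 had 0 UMIs in the Lyve1 cells of all 3 intimal libraries.

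Fcgr4, the activating receptor for IgG2 antibodies and IgE in mouse, was much higher in the intima resident type than in the Lyve1 type. It stood at 198 CPM in the intima resident cells of the arch, 291 CPM in descending a and 414 CPM in descending b, against 4.97, 4.37 and 20.03 CPM in Lyve1 cells. The Lyve1 values rest on 1, 1 and 5 UMIs, and the groups did not overlap. In fits of Lyve1 cells alone Fcgr4 fell below the filter on low counts, so it entered this test through the intima resident cells. The log2 difference was 4.93 ± 0.36 (SE, 3 libraries), with an edgeR adjusted p of 7.4e-08. Cells with an Fcgr4 UMI made up 72.7%, 60% and 83.3% of the intima resident type, against 2.56%, 1.79% and 7.84% of the Lyve1 type. The intima resident cells were deeper, with medians of 8894, 4641 and 4580 UMIs against 5531, 3809 and 3972. Thinned to 2000 UMIs per cell, the shares were 35.1%, 34.8% and 68.8%, against 0%, 0% and 4.17% of Lyve1 cells. No red cell of an intimal library held an Fcgr4 UMI (0 of 56, 41 and 13).

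The inhibitory Fcgr2b went the other way. Its level was 69.5 CPM in the intima resident cells of the arch, 149.9 CPM in descending a and 191 CPM in descending b, against 458, 458 and 713 CPM in Lyve1 cells. Every Lyve1 sum lay above every intima resident sum. Fcgr2b was lower in the intima resident type by a log2 difference of -2.08 ± 0.24 (SE), with an edgeR adjusted p of 9.0e-06.

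Fcgrt showed the same direction. FcRn RNA stood at 221 CPM, 299.8 CPM and 255 CPM in the intima resident cells of the arch and descending a and b, against 1248, 1546 and 1350 CPM in Lyve1 cells. The groups were far apart, with a log2 difference of -2.34 ± 0.19 (SE) and an edgeR adjusted p of 2.0e-07. In Lyve1 cells 94.1% to 100% carried an Fcgrt UMI, and in intima resident cells 50% to 77.9%.

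Fcgr1 and Fcgr3 were not called between the types, and the call of Fcer1g was narrow. Fcgr1, the high-affinity IgG receptor, stood at 78.2, 115 and 84.9 CPM in intima resident cells, against 124, 175 and 112 CPM in Lyve1 cells. Its log2 difference of -0.49 ± 0.25 was not called (edgeR adjusted p = 0.18). Fcgr3 stood at 453, 688 and 742 CPM, against 801, 808 and 677 CPM, and the types overlapped (log2 difference -0.24 ± 0.20, adjusted p = 0.41). The gamma chain Fcer1g stood at 2894, 3447 and 3649 CPM in intima resident cells, against 2184, 2580 and 2973 CPM in Lyve1 cells. Within each library it was higher in the intima resident type. That difference of 0.46 ± 0.15 passed the edgeR test narrowly, with an adjusted p of 0.039. It was not called by edgeR without the library block (adjusted p = 0.14) or without the filter on low counts (0.64). It was also not called by DESeq2 (adjusted p = 0.34), or by edgeR without the arch, descending a or descending b library (0.094, 0.16 and 0.11). Of the 6 genes tested 2 were higher and 2 lower, beside 13% and 13.6% of the 3401 genes tested.

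**Figure D2:**
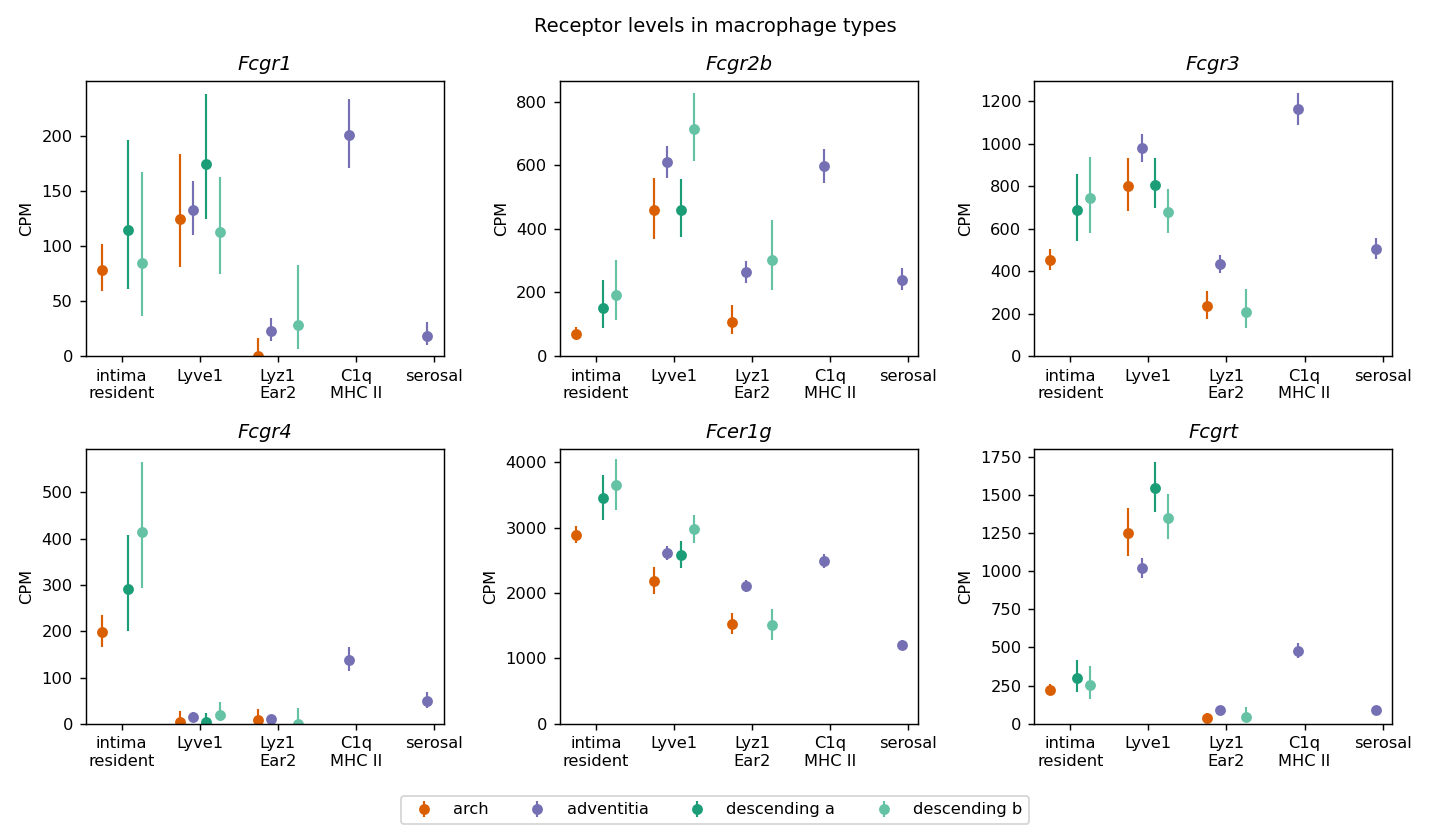
CPM of each receptor gene (vertical axis, linear, from 0) by macrophage type, with 1 point per library and 95% Poisson intervals. Fcgr4 sits at 198 to 414 CPM in intima resident cells and at 4.37 to 20.03 CPM in intimal Lyve1 cells, while Fcgr2b and Fcgrt are higher in Lyve1 cells.

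Of all genes tested between the types 13% were called higher in the intima resident type and 13.6% lower. Among genes of activating signalling 6 of the 13 tested were higher in the intima resident type and 0 lower. Among them Lat2 differed by 3.31, Coro1a by 2.39 and the kinase Prkcd by 1.44. Inhibitory signalling split: Ptpn6 was higher by 1.58 and Dok3 by 1.28, whereas Dok2 was lower (-1.63) and so was the ubiquitin ligase Cbl (-1.16), and 3 of the 7 tested were not called. Of the list of adaptors and gamma chain partners Clec4n was higher by 3.56, Clec4d (a lectin for mycobacterial glycolipid) by 1.99 and the adaptor Tyrobp by 0.76. These made 3 of the 4 tested. Fcrls was lower in the intima resident type (-3.87), 1 of 2 tested in its list. The median log2 differences were 0.58 for activating signalling, 0.41 for inhibitory signalling and 1.37 for the partners of the gamma chain, against -0.03 over all genes.

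The balance between inhibitory and activating receptors was expressed as the share of Fcgr2b among the UMIs of Fcgr1, Fcgr2b, Fcgr3 and Fcgr4. In intima resident macrophages Fcgr2b gave 8.70% of these UMIs in the arch (48 of 552), 12.1% in descending a (17 of 141) and 13.3% in descending b (18 of 135). Lyve1 macrophages gave 33.0% (92 of 279), 31.7% (105 of 331) and 46.8% (178 of 380) in the same libraries. The lowest Lyve1 share was above the highest intima resident share. Means were 11.4% ± 2.40 (SD, n = 3) and 37.2% ± 8.39 (SD, n = 3), a difference of -25.8 percentage points. The share was lower in the intima resident type in each library, with differences of -24.3 points in the arch, -19.7 in descending a and -33.5 in descending b. Both types come from the same 3 libraries. Exchanged within each library, the exact two-sided permutation test gave p = 0.25, the smallest that 3 pairs allow, and with all 6 values exchanged freely it gave p = 0.10, again the smallest possible. In the adventitia Lyve1 macrophages gave 35.1% (95% Clopper-Pearson interval 32.7 to 37.5). The Lyz1 Ear2 macrophages gave 36.2% there (32.5 to 40.0), 30.8% in the arch (20.8 to 42.2) and 56.1% in the 13 cells of descending b (42.4 to 69.3). In the adventitia C1q MHC class II macrophages gave 28.4% (26.3 to 30.6), serosal macrophages 29.5% (25.9 to 33.2) and monocytes 25.9% (22.0 to 30.1).

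Other leukocytes spanned a wider range of this share. Neutrophils gave 6.03% (2.46 to 12.04) and the monocytes with Ace, Spn and Treml4 RNA 15.3% (7.22 to 27.0). B cells gave 74.1% (70.4 to 77.7), plasma cells 67.5% (58.4 to 75.6), dendritic cells with Cd209a RNA 66.9% (59.3 to 73.8) and those with Xcr1 RNA 53.7% (39.6 to 67.4). Adventitial red cells gave 26.0% (16.6 to 37.2), near the 32.0% of all adventitial macrophages, and adventitial fibroblasts, at 29.6%, and T cells, at 33.5%, were close to them.

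**Figure D3:**
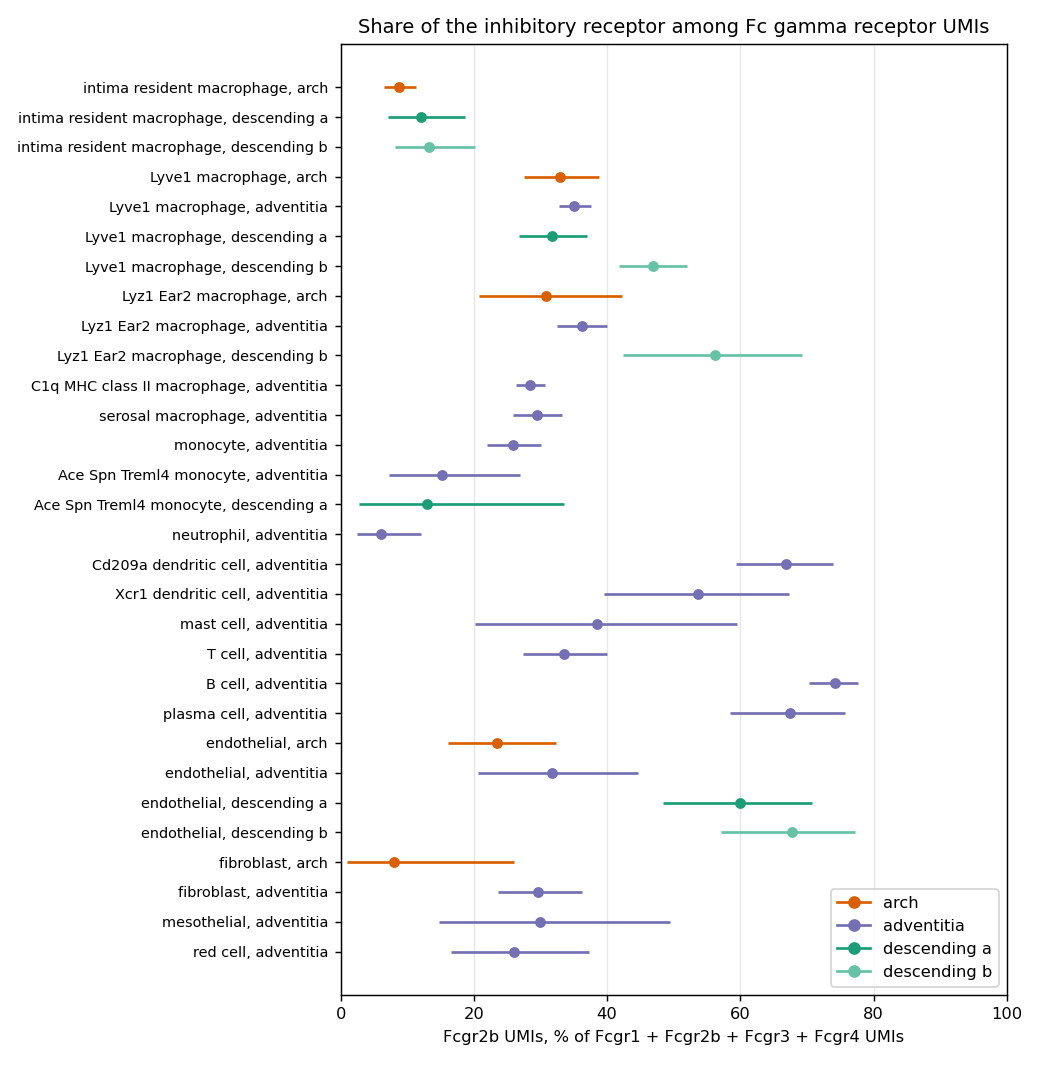
Percent of Fc gamma receptor UMIs that came from Fcgr2b (horizontal axis) for each class and library with at least 20 such UMIs; bars are 95% Clopper-Pearson intervals and colours the libraries. Intima resident macrophages (8.70% to 13.3%), neutrophils, Ace Spn Treml4 monocytes and arch fibroblasts (8%, of 25 UMIs) lie at the left. B cells, plasma cells, dendritic cells, descending endothelium and the Lyz1 Ear2 macrophages of descending b lie at the right.

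Further macrophage types held other mixtures. The C1q MHC class II type, seen in the adventitial library alone (251 cells), carried all the activating receptors: Fcgr1 at 200.4 CPM (171 to 234), Fcgr3 at 1164 CPM (1091 to 1241) and Fcgr4 at 138 CPM (113 to 166). Its Fcgr2b, at 596 CPM, was within the interval of adventitial Lyve1 cells (609 CPM, 559 to 662), and its Fcgrt, at 479 CPM, was below their 1019.5 CPM. The Lyz1 Ear2 type held little Fcgr1, at 0 CPM in the arch (24 cells) and 22.5 CPM in the adventitia (158 cells), and its Fcgrt stood at 36.1 and 91.1 CPM. Of the macrophage types it held the highest Fcrls, at 739 CPM in the arch and 584 CPM in the adventitia, against 168 to 279 CPM in Lyve1 cells. The summed level of the 10 macrophage markers was 2957 and 5342 CPM in this type, against 16908 to 25875 CPM in the Lyve1 and intima resident types. Serosal macrophages (115 cells) had Fcgr1 at 18.2 CPM, Fcgr4 at 49.5 CPM and the lowest Fcer1g of the adventitial macrophage types, 1205 CPM (1128 to 1285).

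Comparing the regions, the pooled macrophages of the arch carried less Fcgr2b and Fcgrt than those of the descending aorta. Fcgr2b stood at 147 CPM in the arch, against 368 and 507 CPM in descending a and b. The arch value lay below both, with a log2 difference of -1.48 ± 0.32 (SE, 1 library against 2) and an edgeR adjusted p of 3.0e-04. Fcgrt stood at 369.9 CPM, against 1060.0 and 814 CPM, a difference of -1.25 ± 0.29 with an adjusted p of 0.0014. These were 2 of 6 members tested, both lower, beside 1.97% of 8111 genes called lower, 1.74% called higher and 3.71% in either direction. Fcgr1, Fcgr3, Fcgr4 and Fcer1g were not called (edgeR adjusted p of 0.45 to 0.94). Of the 21 genes of activating signalling tested 2 were higher, among them Coro1a by 0.94, of 6 gamma chain partners Clec4d was lower (-2.17), and of 9 inhibitory genes 0 were called. The mixture of types also differed between these libraries. Of the arch macrophages 55.0% were intima resident and 27.9% Lyve1. In descending a and b 28.7% and 22.0% were intima resident and 64.4% and 62.2% Lyve1. The part of the mixture in the pooled differences was not tested. Within the types neither gene was called, in fits on fewer cells, which does not show that a difference was absent. In intima resident cells Fcgr2b differed by -1.25 ± 0.43 (edgeR adjusted p = 0.11) and Fcgrt by -0.31 ± 0.37 (0.95), with 1.08% of 1845 genes called higher, 0.813% lower and 1.9% in either direction. In Lyve1 cells Fcgr2b differed by -0.37 ± 0.30 (edgeR adjusted p = 0.90) and Fcgrt by -0.23 ± 0.26 (0.93), with 0.487% of 4105 genes called higher, 0.585% lower and 1.07% in either direction. At an unadjusted p under 0.05 these fits held 172 and 293 genes. These p-values draw on 1 residual degree of freedom and on the spread pooled over genes, and the 18 intima resident cells of descending b fell short of the planned 20.

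Adventitial macrophages were compared with the same descending libraries. Fcgrt stood at 434 CPM in the adventitia, against 1060.0 and 814 CPM, and was the only member called, at -0.90 ± 0.29 with an edgeR adjusted p of 0.019, beside 5.23% of genes called lower, 6.07% higher and 11.3% in either direction. With the serosal type left out the difference was -0.59 (edgeR adjusted p = 0.22). It was -0.87 with DESeq2 (adjusted p = 0.21) and -0.81 with edgeR without the filter on low counts (0.062). Fcgr3, at 772 CPM against 741 and 581 CPM, and Fcgr2b, at 431 CPM against 368 and 507 CPM, were not called. Lyve1 cells of the 2 regions fell in separate clusters: 99.3% of the adventitial ones in 1 cluster and 100% of the descending ones in another (called doublets included). In Lyve1 cells alone 0 of 5 members were called with edgeR or DESeq2, beside 7.11% of genes called higher with edgeR, 3.85% lower and 11% in either direction. Their lowest edgeR adjusted p was 0.092, for Fcgr3 (979 CPM against 808 and 677 CPM). No intima resident macrophage was found among the 791 adventitial macrophages. Of 6 gamma chain partners tested Clec4e (Mincle) was higher in adventitial macrophages by 2.77 and Clec4d by 2.1, and Clec4n was lower (-1.48). Of 21 genes of activating signalling Pik3r5, a regulatory subunit of a lipid kinase, was higher by 1.27, and of 9 inhibitory genes 0 were called. In Lyve1 cells alone Clec4d was higher by 2.09 and Clec4n by 1.41. Jchain stood at 312 CPM in adventitial macrophages, below the 465 CPM of the red cells there, and descending macrophages held 0 Jchain UMIs.

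The monocytes, neutrophils and dendritic cells of the adventitia held the gamma chain at 449 to 4069 CPM with different binding chains. Monocytes (162 cells) held Fcgr1 at 139.7 CPM (111 to 173) and Fcgr4 at 66.5 CPM (47.5 to 90.6). The Ace Spn Treml4 monocytes, the patrolling kind (24 cells), held Fcgr4 at 244 CPM (142 to 391) and Fcer1g at 4069 CPM, and their Fcgr4 interval lay above that of the other monocytes. In descending a 10 such cells held 3 Fcgr4 UMIs (70.1 CPM, 14.4 to 205), which overlapped both. Neutrophils (117 cells) held Fcgr3 at 418 CPM and Fcgr4 at 62.9 CPM, and their Fcgr1, at 8.98 CPM (2 UMIs), was near the 5.02 CPM of red cells. Cd209a dendritic cells (51 cells) held Fcgr2b at 427 CPM (353 to 513) with Fcgr3 at 182 CPM, and Xcr1 dendritic cells (56 cells) held less of both, 81.8 and 59.3 CPM. Their Fcer1g stood at 2252 and 449 CPM. Each of these values comes from 1 library, so there is no replicate check.

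Mast cells and natural killer cells showed the gamma chain beside partners of its own. In 23 mast cells the IgE receptor alpha chain Fcer1a stood at 2270 CPM and the beta chain Ms4a2 at 537 CPM, and red cells held them at 3.76 and 0.627 CPM. Fcer1g stood at 1775 CPM, Fcgr3 at 330 CPM (16 UMIs) and Fcgr2b at 206 CPM (10 UMIs), and Fcgr1 and Fcgr4 had 0 UMIs in mast cells. In 48 natural killer cells Fcer1g stood at 1841 CPM (1587 to 2125) and Fcgr3, the CD16 of mouse natural killer cells, at 118 CPM (61.0 to 206, 12 UMIs). Fcgr2b stood at 19.7 CPM there, near the red-cell level. T cells of the adventitia (2027 cells) held Fcer1g at 216 CPM, not far above the 165 CPM of red cells. A subcluster of 238 T cells led by Klra9, Ccl4 and Ifng, with Cd3e at 232 CPM and all but 1 from the adventitia, stood apart from the others with Fcer1g at 613 CPM and Tyrobp at 739 CPM. The cytotoxic gene Gzmb and the natural killer receptor gene Klre1 were also among its leading genes. Ncr1, a natural killer cell marker, stood at 43.6 CPM there (19 UMIs in 15 cells), against 431 CPM in the natural killer subcluster and 0 to 1.58 CPM in the other T subclusters. The part of natural killer cells in its Fcer1g was not tested. The other T subclusters had Fcer1g at 59.02 to 189 CPM.

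Fcmr and Fcer2a marked B cells. Fcmr stood at 342 CPM (324 to 361) in 1474 adventitial B cells and at 1138 CPM (839 to 1509, 48 UMIs) in the 19 B cells of descending b, against 8.89 CPM in adventitial T cells and 5.64 CPM in red cells. Cells with an Fcmr UMI were 49.3% of adventitial B cells (median 2081 UMIs) and 78.9% of those of descending b (median 2073 UMIs), beside 1.22% of adventitial red cells (median 1984 UMIs). Fcer2a stood at 42.7 CPM (36.5 to 49.7) in adventitial B cells, and at 142 CPM in descending b, from 6 UMIs. The intimal B cells, all of subcluster 4, held the B cell marker Cd79a at 2713 CPM, but the genes that set them apart from adventitial B cells were led by the endothelial genes Cytl1, Ptprb and Clu. Plasma cells held Fcmr at 55.1 CPM (41.7 to 71.3) and no Fcer2a UMI in 224 cells, which allows up to 1.34% of cells with a UMI (the share of 3 cells) and does not bound the cells that express it. Fcgr2b, the inhibitory receptor that B cells rely on, stood at 109 CPM in adventitial B cells and at 80.2 CPM in plasma cells, and red cells held 12.5 CPM.

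The adventitial B cells split into subclusters, made without the 8 genes, that differed in Fcer2a, Fcmr, Fcgr2b and Fcer1g beyond counting error. Subcluster 0 (887 cells, led by Satb1 and Ccr7) held Fcer2a at 86.6 CPM (73.4 to 101) and Fcmr at 434 CPM. Subcluster 1 (396 cells, with S100a4 and S100a6 among its leading genes) held 9.95 CPM of Fcer2a and 199.8 CPM of Fcmr. Its Fcgr4 lay above that of red cells (1.88 CPM, 0.388 to 5.50) beyond counting error, at 18.4 CPM (11.8 to 27.3, 24 UMIs), against 2.26 CPM in subcluster 0. Subcluster 2 (146 cells, led by Nt5e, Rgs1, Zbtb20 and Cd72) held the highest Fcmr, 695 CPM (616 to 782), and Fcgr2b, 189 CPM (149 to 236), with 2 UMIs of Fcer2a. It also held Fcer1g at 760 CPM (677 to 850), and an Fcer1g UMI was found in 76.0% of its cells (69.4% when thinned), beside 27.1% of adventitial red cells (23.5% when thinned). The other adventitial B subclusters had Fcer1g at 93.9 to 194 CPM. Tyrobp and C1qa, which go with Fcer1g in macrophages, stood at 221 and 216 CPM in subcluster 2, against 199.8 and 265 CPM in subcluster 0. Subcluster 3 (45 cells, led by cell cycle genes) held Fcmr at 93.9 CPM. All these cells come from 1 library.

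**Figure D4:**
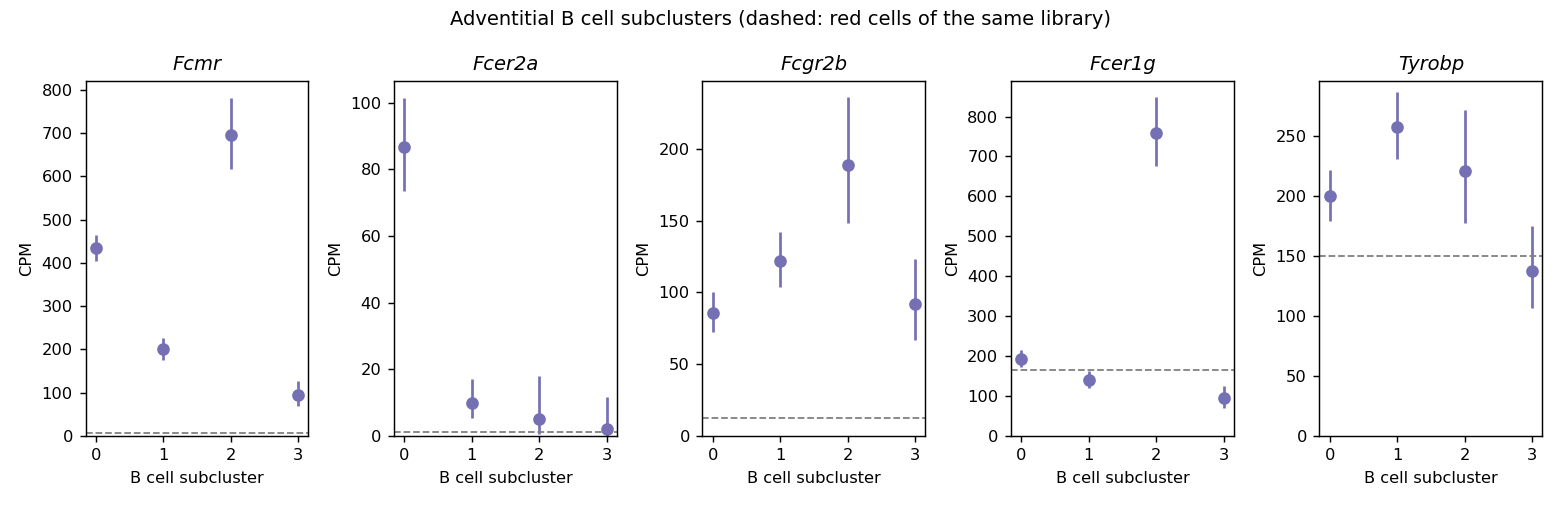
CPM (vertical axes, linear, from 0) in the B cell subclusters 0 to 3 of the adventitial library, with 95% Poisson intervals; the dashed line is the level in red cells of that library. Fcer1g reaches 760 CPM in subcluster 2 while Tyrobp stays at 221 CPM, and Fcer2a is at 86.6 CPM in subcluster 0.

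In the wall cells Fcgrt stood clear of background. Fibroblasts held it at 475 CPM in the arch, 406 CPM in the adventitia and 404 and 429 CPM in descending a and b, against 42.6, 37.0, 11.2 and 15.7 CPM in red cells of those libraries. Endothelial cells held it at 147, 191, 116 and 123 CPM. Fibroblasts were above endothelial cells in each of the 4 libraries. The endothelium of the regions fell in different clusters (called doublets included). Of the adventitial cells 99.5% lay in cluster 11, led by Depp1, Flt1, Kdr, Gpihbp1 and Btnl9, and 94.4% of the arch cells lay in cluster 4. In descending a and b 50.9% and 54.1% lay in cluster 0 and 47.6% and 43.3% in cluster 3, both led by Cytl1. The adventitia and the arch are 1 library each, so library and kind of endothelium cannot be told apart in the comparisons of this class. Adventitial endothelium was higher in Fcgrt than descending endothelium by a log2 difference of 0.77 ± 0.15, with an edgeR adjusted p of 0.0031. The difference of the arch, 0.37 ± 0.14, was not called (edgeR adjusted p = 0.17). Lymphatic endothelial cells held Fcgrt at 223 CPM (165 to 295) in the adventitia and at 364 CPM (274 to 474) in descending a.

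The other receptors were low in endothelium. In the intimal libraries red cells gave little to set them against, with 0 UMIs of Fcgr1, Fcgr2b and Fcgr4 in all 3 and Fcgr3 UMIs in the arch alone (4 UMIs). Fcer1g was higher in the arch endothelium, at 40.2 CPM against 17.1 and 18 CPM, by 1.26 ± 0.15 (edgeR adjusted p = 7.4e-04), 1 of 7 members tested, beside 4.31% of 12979 genes called higher, 3.18% lower and 7.49% in either direction. Among the lists 2 of 19 activating genes were higher (Rac2 by 2.77 and Coro1a by 2.14), 2 of 10 inhibitory genes (Dok2 by 2.21 and Ptpn6 by 1.77) and 2 of 6 gamma chain partners (Clec4n by 2.12 and Tyrobp by 1.23). Red cells held Fcer1g at 61.3 CPM in the arch, 50.3 CPM in descending a and 31.3 CPM in descending b (23, 9 and 2 UMIs). The 10 macrophage markers summed to 236 CPM in arch endothelium, against 112 and 90.5 CPM in descending endothelium. In the adventitia 5 of 7 members were higher than in descending endothelium, beside 18.2% of genes called higher, 16.1% lower and 34.2% in either direction. They were Fcer1g (112 CPM, a log2 difference of 2.76), Fcgr3 (26.6 CPM, 3.71), Fcgr2b (14.4 CPM, 1.41), Fcgr1 (3.60 CPM, 3.15) and Fcgrt. The calls of Fcgr1 and Fcgr2b were lost with DESeq2 (adjusted p of 0.29 each) and at no more than 5% mitochondrial UMIs (edgeR adjusted p of 0.62 and 0.20). All but Fcgrt stood close to the red cells of that library (165, 28.8, 12.5 and 5.02 CPM), and the macrophage markers summed to 529 CPM, against 593 CPM in those red cells. Of the lists 5 of 6 gamma chain partners and 11 of 19 activating genes were higher there, with 2 activating genes lower, and Jchain stood at 369.8 CPM, against 0.386 and 0.453 CPM in descending endothelium. The part of free RNA in these differences was not tested.

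Fcgr2b in the descending endothelium did not follow the proportions of macrophages. There it gave 60.0% (48.4 to 70.8, 48 of 80 UMIs) and 67.8% (57.1 to 77.2, 61 of 90 UMIs) of the Fc gamma receptor UMIs, against 27.4% and 39.9% in the macrophages of the same libraries. In arch endothelium it gave 23.5% (16.1 to 32.3), against 18% in arch macrophages, and the intervals of the descending libraries lay above that of the arch. The levels were low, 2.22 CPM in the arch and 4.63 and 6.91 CPM in descending a and b, and the difference of -1.29 ± 0.40 was not called (edgeR adjusted p = 0.087). edgeR called it without the filter on low counts (adjusted p = 0.0088) and at no more than 5% mitochondrial UMIs (adjusted p = 0.028). Among 24 Schwann cells of the adventitia 37.5% held an Fcgr2b UMI (259 CPM, 148 to 420, 16 UMIs), beside 2.72% of red cells. All 10 B cell markers had UMIs in these Schwann cells and summed to 1099 CPM, against 108 CPM in adventitial red cells and 722 CPM in adventitial fibroblasts. Fcer2a (3 UMIs) and Fcmr (2 UMIs) were each found in 1 of the 24 cells, and the part of B cell RNA in their Fcgr2b was not tested. Fcgr3, at 48.5 CPM (3 UMIs) in Schwann cells, was nearer to the 28.8 CPM of red cells.

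**Figure D5:**
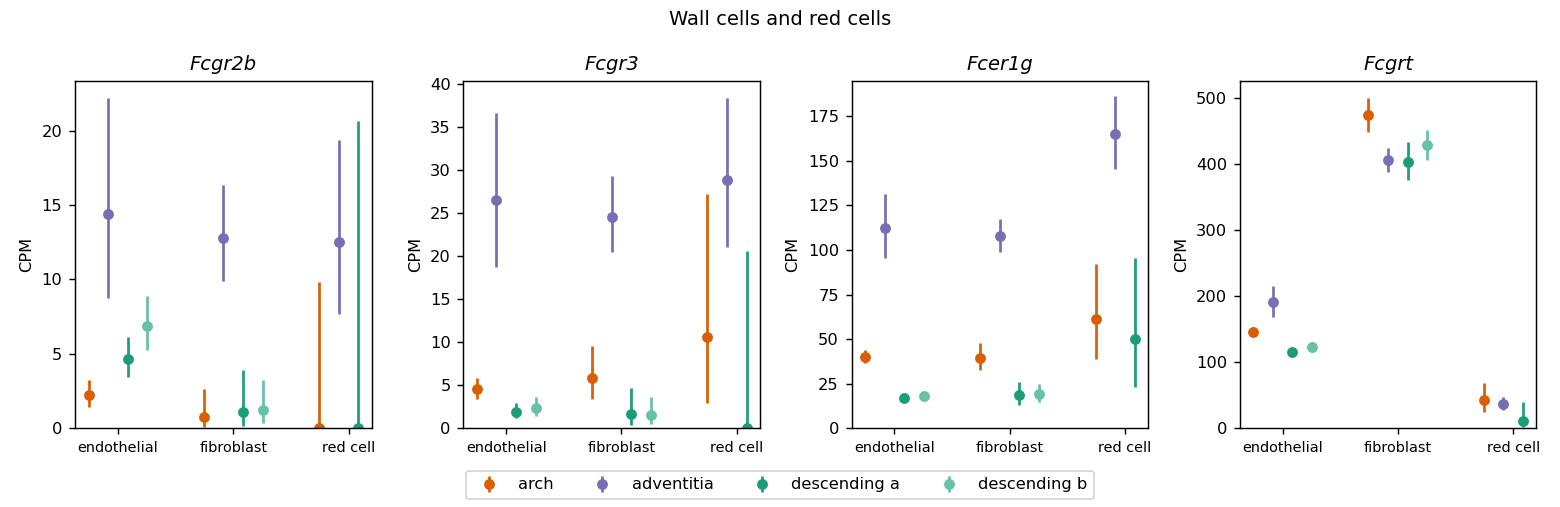
CPM (vertical axes, linear, from 0) of 4 genes in endothelial cells, fibroblasts and red cells by library, with 95% Poisson intervals; sums of fewer than 20 cells are not drawn. Fcgr2b, Fcgr3 and Fcer1g of adventitial wall cells sit near the red cells of that library, and Fcgrt is highest in fibroblasts.

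Across the 39 sums of library and class with at least 20 cells, the genes most like each receptor were ranked by Pearson's r of log2(CPM + 10) over 11572 genes, as a description, since the sums share libraries and free RNA. Fcer1g was most like Tyrobp (r = 0.98) and Fcgr3 most like Fcer1g (r = 0.97), followed by Tyrobp and the lysozyme gene Lyz2 (r = 0.94 each). For Fcer1g the next after Fcgr3 was Gm49339 (r = 0.94). Fcgr1 was most like Ms4a6d (r = 0.93), Clec4a3 (r = 0.91) and Csf1r (r = 0.91), the receptor for the macrophage growth factor. Fcgr2b was most like Ctsc, Ms4a6c and Rassf4 (r = 0.91 each). Among the genes most like Fcgr4 were the fractalkine receptor Cx3cr1 and Klra2 (r = 0.86 each). Fcgrt was most like the selenium carrier Selenop (r = 0.89), and Cmtm3 was also near (r = 0.84). The B cell factor Pax5 came nearest to Fcer2a (r = 0.94), and Cd22 was also near (r = 0.84). Among the genes most like Fcmr were Cd22 and Ms4a1 (r = 0.89 each).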

How the data were processed

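RNA was measured in 4 libraries of mouse aortic cells, prepared with version 2 of the 3' droplet kit from 10x Genomics per the labels' protocols. The deposited files hold UMI counts for each gene in each barcode, which the authors made with Cell Ranger 2.1.2 on mm10 per the submitters' processing notes; the annotation release and counting by strand are not given in the sources used here. Files held 2187 barcodes (arch), 9347 (adventitia), and 2095 and 2178 (descending a and b), with 18624525, 29370967, 13715023 and 13181305 UMIs.

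Barcodes were kept from 200 genes upward and up to 10% mitochondrial UMIs. Doublets were scored per library with Scrublet in scanpy 1.11.5; the automatic threshold called 4 adventitial barcodes, so, after this was seen, the highest scores were called at 0.8% per 1000 barcodes (50, 647, 52 and 37). Cells were clustered together without batch correction and without the 8 genes (2000 variable genes, 30 components, 15 neighbours, leidenalg 0.10.2 at resolution 1.0) and named from marker lists; macrophages were split at resolution 0.5. With the 8 genes among those allowed, 98.8% of cells kept their class. Libraries shared 4 to 31 barcodes.

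Counts were summed per library and class and tested with edgeR 4.0.16 (TMM, filterByExpr, glmQLFTest, Benjamini-Hochberg threshold 0.05) in R 4.3.3, with DESeq2 1.42.0 as an alternative. The SE beside a log2 difference was calculated from the edgeR test, as the absolute difference divided by the square root of the F statistic. Arch and adventitia were compared with the same descending libraries with 1 residual degree of freedom; nothing says how far a and b are separate beyond their mice, so p-values measure only how these samples vary, possibly for technical reasons. Tested on simulated data, the type comparison (3013 genes) recovered 46 of 100 genes changed 2-fold and 98 of 100 changed 4-fold, and the arch macrophage comparison (7284 genes) 7 and 68. Intervals are 95% and cover counting error only. The planned minimum of 20 cells was lowered to 15 for the fits, so that descending b entered for intima resident macrophages. Sequences come from RefSeq (all 8 genes matched). The members and lists were chosen with earlier results of these data known. Named were the 8 genes, up to 4 called members per list and the 3 genes most like each receptor, apart from some that are not reported here; other genes, the subclusters and the alternatives without the serosal type, with thinned cells and with 15 cells were chosen after their values were seen.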

Additional observations from a re-analysis of the deposited data

Results flagged for a closer look

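Between the arch and both descending libraries, several receptors moved in opposite directions in different classes. None of these opposite movements was tested, and region, age and library cannot be told apart. They were picked because the lone arch value lay above both descending values in the wall class and below both in the macrophage type. The rule was applied to the 8 genes alone, so its share over all genes is not known. Each value is the log2 ratio of arch to mean descending CPM in the wall class minus that in the macrophage type, so a positive value means that the arch was relatively higher in the wall class. For Fcer1g it was 1.54 for endothelium against Lyve1 macrophages, 1.49 for endothelium against intima resident macrophages, 1.41 for fibroblasts against Lyve1 macrophages and 1.35 for fibroblasts against intima resident macrophages. For Fcgr3 it was 1.73 for endothelium and 2.54 for fibroblasts, both against intima resident macrophages. For Fcgr4 it was 2.65 for endothelium against intima resident macrophages. For Fcgrt it was 0.51 and 0.62 for endothelium, and 0.40 and 0.51 for fibroblasts, against Lyve1 and intima resident macrophages in that order. The log2 ratios behind the Fcgrt values were small, 0.30 in endothelium and 0.19 in fibroblasts. In Lyve1 and intima resident macrophages they were -0.21 and -0.32. The macrophage marker sum of the wall classes was also higher in the arch (236 CPM in endothelium and 264 CPM in fibroblasts, against 112 and 90.5 CPM and 130 and 105 CPM in descending a and b), and its part in these values was not tested. Arch and descending endothelium also fell mostly in separate clusters.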

How the results depend on the processing

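No paired analysis was possible because the regions compared share only the number 1, given by accession order; the edgeR comparisons of classes within libraries had the library as a block. Of 491 member values under the alternatives, 468 were counted as the same. Of the rest 13 lost a call, 5 gained one, 5 moved beyond the spread and 0 reversed a call. Values that changed sign where neither fit called the gene were counted as the same. So were values without an adjusted p that kept their sign and lay within the SE of the reported value. Fcgr1 in arch against descending Lyve1 cells, for example, was -0.21 as reported and ranged from -0.50 to 0.12. The calls for Fcgr4, Fcgr2b and Fcgrt between the macrophage types held under all 11 alternatives, and those for Fcgr2b and Fcgrt in arch macrophages under all with a test. DESeq2 called fewer genes: 464 against 905 between the types, 64 against 301 in arch macrophages, 177 against 916 in adventitial macrophages, 3 against 35 in arch intima resident cells, 10 against 44 in arch Lyve1 cells, 69 against 450 in adventitial Lyve1 cells, 198 against 972 in arch endothelium and 2307 against 4440 in adventitial endothelium; the cause was not tested. Leaving out each library gave 589 (without the arch) to 779 calls between the types, and no library block gave 721. At most 5% mitochondrial UMIs gave 267 in adventitial Lyve1 cells and 1657 in arch endothelium, where no low-count filter gave 1596. Thinned cells gave 474 in adventitial macrophages and 272 in adventitial Lyve1 cells, where fewer genes were tested. The inhibitory share differed by -28.9 to -22.0 points without each library; pairing by library, chosen after the data were seen, gave an exact permutation p of 0.25. Fcgr4 in intimal Lyve1 cells rests on 1 to 5 UMIs in each library, which limits its precision.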
